A study of Mus musculus with 2 samples.

Results

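Stfa2, Stfa2l1, BC117090, BC100530 and Gm5483 are 5 genes of the mouse stefin A cluster, out of 27933 gene symbols in the deposited lists. They were taken by symbol, and they had been selected on their ratio of counts, far higher in the library from allogeneic than in that from syngeneic graft recipients. That difference is therefore a description here and not a result. Immune cells of lymph nodes were profiled from BALB/c mice carrying a heart from a C57BL/6 donor (allogeneic) and from BALB/c mice carrying a BALB/c heart (syngeneic), at 6 to 8 weeks of age. Each group had 1 droplet library, so the differences have no replicates behind them and no test was run. How many mice were pooled per library was not given in the sources used here. All intervals are 95% and cover counting error only.

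Stefins are small cystatins that stay in the cytosol and block papain-like cysteine proteases such as cathepsins B, L and S by inserting hairpin loops into the active site cleft. In the mouse the stefin A genes have multiplied into a cluster of close copies, and several of them are known as transcripts of neutrophils, the granulocytes that leave the bone marrow and enter inflamed tissue. Lymph nodes hold mainly T and B lymphocytes, so neutrophil transcripts are a minor fraction there.

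The 5 genes lie within 251.6 kb of chromosome 16 in the GRCm38 build, among 11 genes of the cluster that span 335.4 kb. Each has 3 exons in the GENCODE M21 annotation. Stfa2l1 (36156811 to 36161953) and Gm5483 (36184212 to 36188111) are on the plus strand. BC117090 (36321665 to 36334332), BC100530 (36359382 to 36367748) and Stfa2 (36403992 to 36408457) are on the minus strand. The coding sequences fall into close pairs. Stfa2 and Stfa2l1 were 96.5% identical and BC117090 and BC100530 were 95.9% identical, whereas the other 8 pairs were between 76.0 and 81.0% identical. The stretch of the coding sequence around the conserved glutamine-x-valine-x-glycine loop, which enters the protease cleft, shows this pairing, with the codons of the loop in capitals (GENCODE M21 transcripts, 5′ to 3′).
Stfa2: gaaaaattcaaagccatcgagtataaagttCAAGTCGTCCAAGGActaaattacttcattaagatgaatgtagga
Stfa2l1: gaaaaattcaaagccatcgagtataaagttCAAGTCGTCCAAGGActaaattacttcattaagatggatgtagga
BC117090: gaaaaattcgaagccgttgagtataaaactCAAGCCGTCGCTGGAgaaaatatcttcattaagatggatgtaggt
BC100530: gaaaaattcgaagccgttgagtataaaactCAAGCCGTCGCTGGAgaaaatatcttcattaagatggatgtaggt
Gm5483: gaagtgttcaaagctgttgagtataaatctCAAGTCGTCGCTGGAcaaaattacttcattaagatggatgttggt
Over these 75 bases BC117090 and BC100530 did not differ, Stfa2 and Stfa2l1 differed at 1 base, and Gm5483 differed from BC100530 at 11 bases and from Stfa2 at 15 bases. Because the copies are so close, a read can match more than 1 gene. Within the last 300 bases of the transcript, where the 3′ kit reads, 33.8% of 100-base windows of BC100530, 19.4% of BC117090 and 17.4% of Gm5483 occurred exactly in another gene, and none of Stfa2 or Stfa2l1 did. How such reads were counted was not given in the sources used here. The split of counts between BC117090 and BC100530, between BC100530 and Stfa1, and between Gm5483 and 2010005H15Rik is therefore uncertain. Stfa1 and 2010005H15Rik are other genes of the cluster.

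Promoters were found in RefSeq (GRCm38.p6) for 4 of the 5 genes, from 250 bases before to 50 after the annotated start, and not for BC117090. They are shown because the genes occurred together in the same barcodes, and the longest run of letters that all 4 share is in capitals.
Stfa2 (chr16:36408363-36408455, minus strand): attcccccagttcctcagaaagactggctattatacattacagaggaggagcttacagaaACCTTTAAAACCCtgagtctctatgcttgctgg
Stfa2l1 (chr16:36156715-36156807, plus strand): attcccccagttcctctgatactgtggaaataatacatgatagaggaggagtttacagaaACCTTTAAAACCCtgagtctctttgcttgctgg
BC100530 (chr16:36367550-36367642, minus strand): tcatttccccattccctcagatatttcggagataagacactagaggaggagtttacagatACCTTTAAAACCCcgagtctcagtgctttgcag
Gm5483 (chr16:36184120-36184212, plus strand): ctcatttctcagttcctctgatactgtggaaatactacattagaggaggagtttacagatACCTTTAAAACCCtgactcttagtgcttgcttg
The run ACCTTTAAAACCC has 13 bases and begins 32 bases before the start in Stfa2 and Gm5483, 36 before in Stfa2l1 and 12 before in BC100530. Searched on both strands, it occurred in 8 of 27025 promoters of the same length (0.0296%), and all 8 lie in the cluster, including Stfa1 and Stfa3. The run was picked because these promoters share it, and pairs of the 4 promoters were 67.8 to 90.5% identical. Its rarity elsewhere follows in part from that choice and is not separate evidence of a regulatory element. The run contains TTTAAAA, found in 8.65% of all promoters, and none of the 4 promoters held TATAAA, found in 14.2%. The letters TTGCNNAA, the core of C/EBP sites, occurred in BC100530 alone of the 4 and in 10.8% of all promoters. The letters GAGGAA, the core of PU.1 sites, occurred in all 4 and in 28.3% of all promoters. These matches describe letters in a window and not bound sites.

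The allogeneic library held 3500 barcodes and 8415043 unique molecular identifiers (UMIs, 1 per captured transcript), and the syngeneic library held 7967 barcodes and 46486632 UMIs. The barcode lists began at 150 and 3447 UMIs, and haemoglobin genes gave 12.5% and 0.114% of UMIs. A haemoglobin UMI was seen in 99.6% of allogeneic barcodes. The libraries shared 66 barcode sequences, which carried 32 UMIs of the stefin genes in the allogeneic library, and none of the 66 was in its neutrophil-marker class. Counts of the 3′ kit were not divided by transcript length.

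All 5 genes were abundant in the allogeneic library and close to absent in the syngeneic one. BC100530 had 13660 UMIs in 836 allogeneic barcodes and 15 UMIs in 5 syngeneic barcodes, or 1623 against 0.323 CPM (UMIs of a gene scaled to a library total of 1000000). Gm5483 had 6166 UMIs in 413 barcodes against 31 in 2 barcodes, or 733 against 0.667 CPM. Stfa2 had 2799 UMIs in 186 barcodes against 1 UMI, or 333 against 0.0215 CPM. These 3 genes carried most of the allogeneic counts, and BC100530 alone gave 50.8% of them.

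Stfa2l1 had 2237 UMIs in 169 barcodes against 14 in 6 barcodes, or 266 against 0.301 CPM. BC117090 had 2021 UMIs in only 42 barcodes against 1 UMI, or 240 against 0.0215 CPM. BC117090 was thus as abundant as Stfa2l1 over the library while being seen in far fewer barcodes. Summed, the genes stood at 3195 against 1.33 CPM, a log2 ratio of 11.23 (10.87 to 11.61). The log2 ratios were 13.92 (11.44 to 19.22) for Stfa2, 9.79 (9.04 to 10.66) for Stfa2l1, 13.45 (10.97 to 18.75) for BC117090, 12.30 (11.57 to 13.13) for BC100530 and 10.10 (9.59 to 10.66) for Gm5483. All 5 were at least 10-fold higher, as were 1.42% of 11220 genes with 50 UMIs (8.38% were at least 2-fold higher), and their choice had used this ratio.

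The counts came from very few barcodes. In the allogeneic library 7 barcodes held 50% of all UMIs of the 5 genes, and 21 barcodes with at least 100 each held 25014 UMIs (93.0%). A further 908 barcodes had exactly 1 UMI. To see what the rich barcodes were, each barcode was scored by the percentage of its UMIs in 16 neutrophil markers that include none of the 5 genes, among them S100a8 and S100a9, Ngp, Retnlg, Cxcr2 and Ly6g. A barcode with at least 5% was put in a neutrophil-marker class, which is a range of that percentage and not a cell type. All 21 rich barcodes fell in it.

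**Figure D1:**
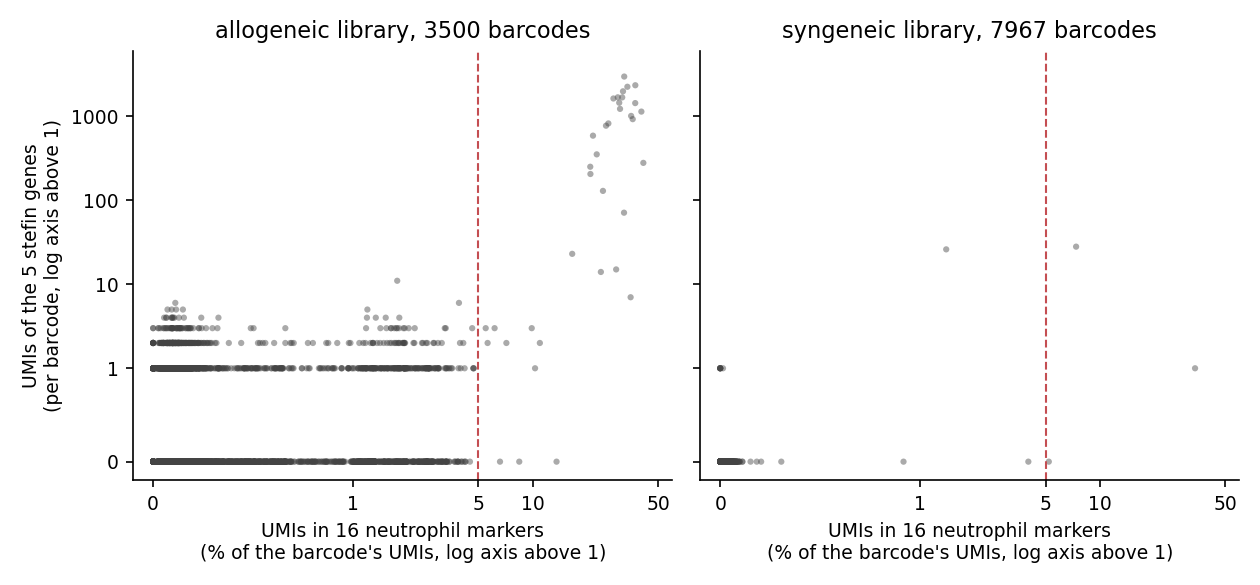
UMIs of the 5 stefin genes per barcode against the percentage of the barcode's UMIs in 16 neutrophil markers, in the allogeneic (3500 barcodes) and syngeneic (7967 barcodes) libraries, with both axes linear below 1 and logarithmic above. The dashed line marks 5%, and all 21 allogeneic barcodes with at least 100 stefin UMIs lie to its right.

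The class had 36 allogeneic barcodes with a median of 16055.5 UMIs, of which 7 had fewer than 2000 UMIs. They held 25160 of the 26883 UMIs (93.6%, 93.3 to 93.9%), and 33 of the 36 had at least 1. Over the class the 5 genes made 46308 CPM: 23345 for BC100530, 10583 for Gm5483, 4841 for Stfa2, 3847 for Stfa2l1 and 3692 for BC117090. S100a8, a calcium-binding alarmin and the most abundant marker named, stood at 145946 CPM in the same barcodes. Within the 21 rich barcodes the stefin genes took 0.917 to 10.5% of all UMIs, with a median of 6.60%. These barcodes had at most 8 UMIs in T markers and at most 2 in B markers.

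Of the defining markers, 16 of 16 were at least 10-fold higher than in the other barcodes, which follows from how the class was chosen. All 5 stefin genes were at least 10-fold higher there, as were 207 of 8480 genes with 50 UMIs (2.44%). Markers of mast cells and basophils (6 genes) and of eosinophils (5 genes) had 0 UMIs in it. Each of these lists stood at only 0.381 CPM outside, with no gene at 50 UMIs, so the counts of 0 say little about the class. T and B markers summed to 177 and 40.5 CPM against 2219 and 903 CPM outside. Markers of monocytes and macrophages were present, at 692 CPM against 317 CPM, with Csf1r at 25 UMIs, Vcan at 50 and F13a1 at 59. Of 9 of these markers with at least 50 UMIs, 6 stood higher in the class and 3 lower, the complement genes C1qa (3 UMIs inside, 228 outside), C1qb (2 and 158) and C1qc (1 and 119). Their part in the stefin counts is given by barcode below.

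**Figure D2:**
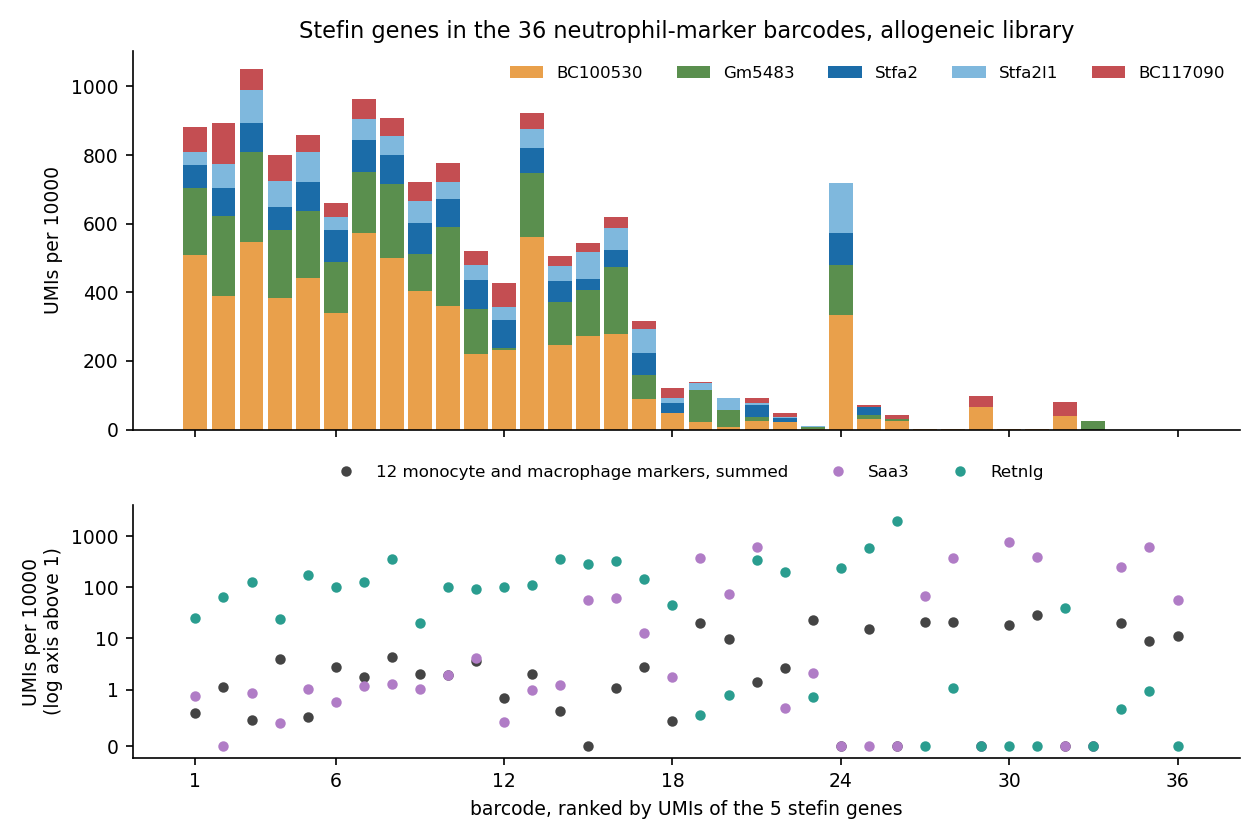
UMIs per 10000 of the 5 stefin genes (upper panel, stacked bars) and of monocyte and macrophage markers, Saa3 and Retnlg (lower panel, points, linear below 1 and logarithmic above) in the 36 allogeneic neutrophil-marker barcodes, ranked by their stefin UMIs. Bars are tall from rank 1 to 17 and at rank 24, a shallow barcode with 15 stefin UMIs among 209. Ranks 19 and 20 combine monocyte markers (37 and 22 UMIs) and Saa3 with 1 and 2 UMIs of Retnlg.

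The barcode with the most held 2959 stefin UMIs among 33536 (8.82%), with 1710 of BC100530, 652 of Gm5483, 249 of BC117090, 228 of Stfa2 and 120 of Stfa2l1. The barcode of rank 3 had the largest fraction, 2237 of 21273 UMIs (10.5%). Among the 21 rich barcodes BC100530 made a median of 48.6% of stefin UMIs (8.29 to 60.7%), Gm5483 23.8% (0.360 to 68.4%), Stfa2 9.49% (0 to 37.2%), Stfa2l1 8.95% (4.06 to 36.6%) and BC117090 6.04% (0.800 to 24.5%). The order of the genes was therefore that of the library sums in the typical barcode, with wide spread between barcodes.

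Some barcodes departed further from the median make-up. One kind had the other genes with almost no Gm5483. Rank 12 had 12 UMIs of Gm5483 beside 547 of BC100530 and 191 of Stfa2, rank 18 had 1 beside 109 and 64, and rank 22 had 0 beside 35 and 15. Of 20 barcodes with at least 5000 UMIs and few monocyte UMIs (defined below), the other 17 had 12.4 to 31.9% of their stefin UMIs in Gm5483. At the pooled percentage of those 17 (23.3%), the 3 barcodes would have had 316 UMIs of Gm5483 where 13 were counted. They were deep barcodes of 23475, 22677 and 14958 UMIs with 32.3 to 41.4% of UMIs in neutrophil markers, and they were picked out after their values were seen.

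Another kind had Gm5483 and Stfa2l1 with almost no Stfa2 or BC117090. Rank 19 had 171 UMIs of Gm5483, 39 of Stfa2l1, 38 of BC100530, 2 of BC117090 and 0 of Stfa2. Rank 20 had 108, 75, 17, 3 and 2. Both carried monocyte and macrophage marker UMIs, 37 and 22, where the 18 barcodes ranked above them had 0 to 10. They also held 1 and 2 UMIs of Retnlg, a neutrophil-secreted resistin-like protein, and 685 and 164 of Saa3, an acute-phase serum amyloid.

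After these values were seen, the class was split by whether neutrophil markers other than S100a8 and S100a9 had over 50 times as many UMIs as monocyte and macrophage markers. The 26 barcodes above that limit (few monocyte UMIs) held 24672 stefin UMIs, and the 10 below it (more monocyte UMIs) held 488. With at least 5000 UMIs, 20 barcodes with few monocyte UMIs had a median of 691 stefin UMIs per 10000 (47.5 to 1052) and 9 with more had 1.46 (0 to 138). S100a8 differed far less between them, with medians of 1754 and 693 per 10000. It is among the markers that chose the class and was left out of the split, so its smaller difference follows in part from these rules. Saa3 ran the opposite way, with medians of 1.11 and 372 per 10000. Ranks 19 and 20, which prompted the split, held 455 of the 488 stefin UMIs of the barcodes with more monocyte UMIs, and the other 8 held 33.

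Across the 36 barcodes, log2(1 + UMIs per 10000) of the members went together, with Pearson r from 0.58 (BC117090 and Gm5483) to 0.89 (Stfa2 and BC100530). These points share a library, and the correlations are descriptions. Within the 21 rich barcodes r was 0.94 for Stfa2 and BC117090 and 0.89 for BC117090 and BC100530, but 0.22 for Stfa2 and Gm5483 and 0.24 for BC117090 and Gm5483. Stfa2 and its closest copy in sequence, Stfa2l1, had an r of 0.44 there, but 0.87 over all 36 barcodes, close to the highest value. The 21 include ranks 19 and 20, with 0 and 2 UMIs of Stfa2 but 39 and 75 of Stfa2l1, and r was not computed without them. With both included, the pair closest in sequence was not the pair most alike within the 21 rich barcodes. BC117090 and BC100530, the other close pair, had an r of 0.89 in both sets.

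Beyond the neutrophil-marker class a low count was spread over the whole allogeneic library. There 1249 of 3464 barcodes carried 1723 stefin UMIs, 907 of them exactly 1, and the highest had 11. The level was 186 CPM (166 to 208) in T-marker barcodes and 192 CPM (160 to 227) in B-marker barcodes. It was 236 CPM (223 to 249) in 2482 barcodes led by haemoglobin, whose median depth was 648.5 UMIs, and 193 CPM (152 to 241) in the other 300. The haemoglobin-led class is named for that RNA alone, since nearly every barcode carried it. With haemoglobin left out of the weighing, T-marker and B-marker barcodes stood at 176 and 190 CPM, and the 1681 barcodes of neither kind, which were shallower at the median, at 375 CPM (345 to 405).

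**Figure D3:**
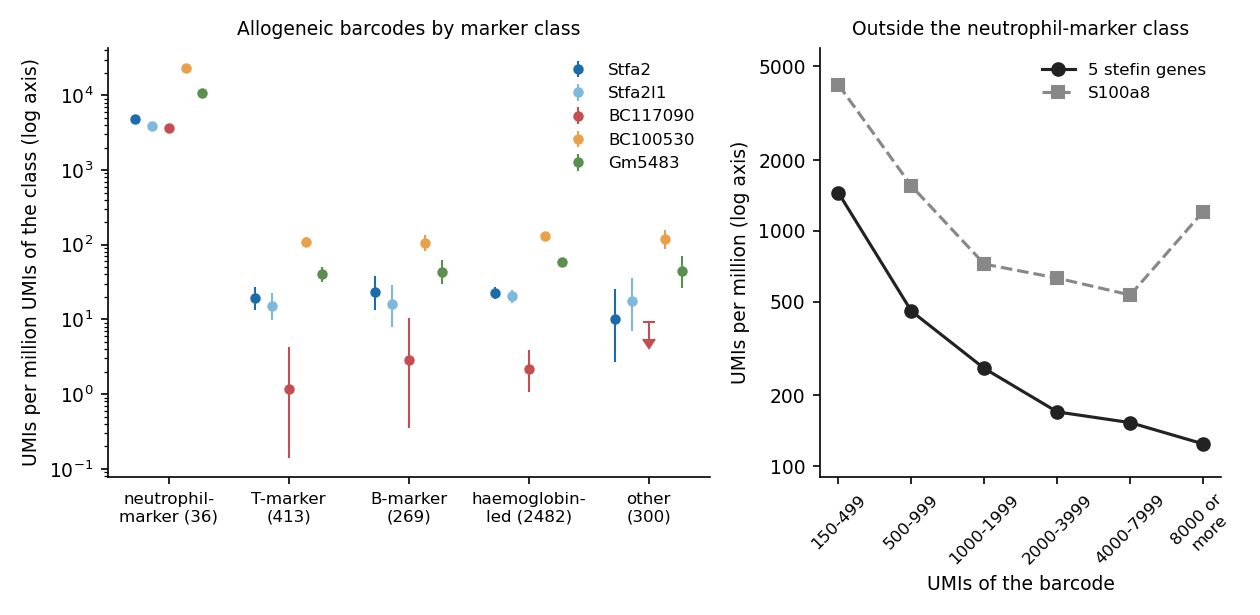
Left, CPM of each stefin gene in 5 classes of allogeneic barcodes (number of barcodes in brackets; bars are exact Poisson 95% intervals, the arrow an upper limit at 0 UMIs, log axis). Right, CPM of the 5 genes summed and of S100a8 in the other barcodes by their UMI number, log axis. The stefin level declines from 1450 to 124 CPM. S100a8 falls from 4175 to 534 CPM and then stands at 1208 CPM in barcodes of at least 8000 UMIs.

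In all, 1282 of 3500 allogeneic barcodes (36.6%, 35.0 to 38.2%) had a stefin UMI, against 10 of 7967 syngeneic barcodes (0.126%, 0.0602 to 0.231%). Thinned to 1000 UMIs, with 1589 shallower allogeneic barcodes and 0 syngeneic barcodes left out, the shares were 17.4% and 0.0502%. T-marker barcodes stood at 16.3% and B-marker barcodes at 17.7% after thinning, with haemoglobin not weighed, and all barcodes outside the neutrophil-marker class at 16.3%. Before thinning, the shares were 44.3% of T-marker barcodes and 34.5% of B-marker barcodes, with median depths of 3481 and 2246.5 UMIs. The neutrophil-marker class had 27 of 31 (87.1%) after thinning. Whether the share in T-marker and B-marker barcodes is background or expression was not tested. Those barcodes made up 1324 and 328 of the 1880 outside the class after thinning, and 32 of the remaining 228 had a stefin UMI (interval of the share 9.80 to 19.2%). Barcodes with fewer than 1000 UMIs were not in these shares, and whether their higher CPM is background was not tested. The CPM outside declined with depth, from 1450 in barcodes of 150 to 499 UMIs through 456, 260, 170 and 153 to 124 in those with at least 8000.

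BC117090 was far rarer outside the class than its share of the stefin UMIs inside. Outside the class Stfa2, Stfa2l1, Gm5483 and BC100530 stood at 0.444, 0.485, 0.499 and 0.531% of their CPM inside, near S100a8 and Ngp at 0.585 and 0.580%. BC117090 stood at 0.0516%, with 15 UMIs in 15 barcodes outside against 2006 inside, a 1938-fold difference with a lower limit of 1172-fold. At its share of the stefin UMIs inside (7.97%), 137 UMIs would have been counted outside, where it made 0.871% (0.488 to 1.43%). Stfa2 made 10.5% of the stefin UMIs inside and 9.81% (8.44 to 11.3%) outside, Stfa2l1 8.31 and 8.53% (7.26 to 9.95%), and Gm5483 22.9 and 24.1% (22.1 to 26.2%), so these 3 intervals hold the share inside. BC100530, the closest copy of BC117090, made 50.4% inside and 56.7% (54.3 to 59.0%) outside, 976 UMIs where 869 would have been counted. Summed, the pair made 58.4% inside and 57.5% (55.1 to 59.9%) outside.

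**Figure D4:**
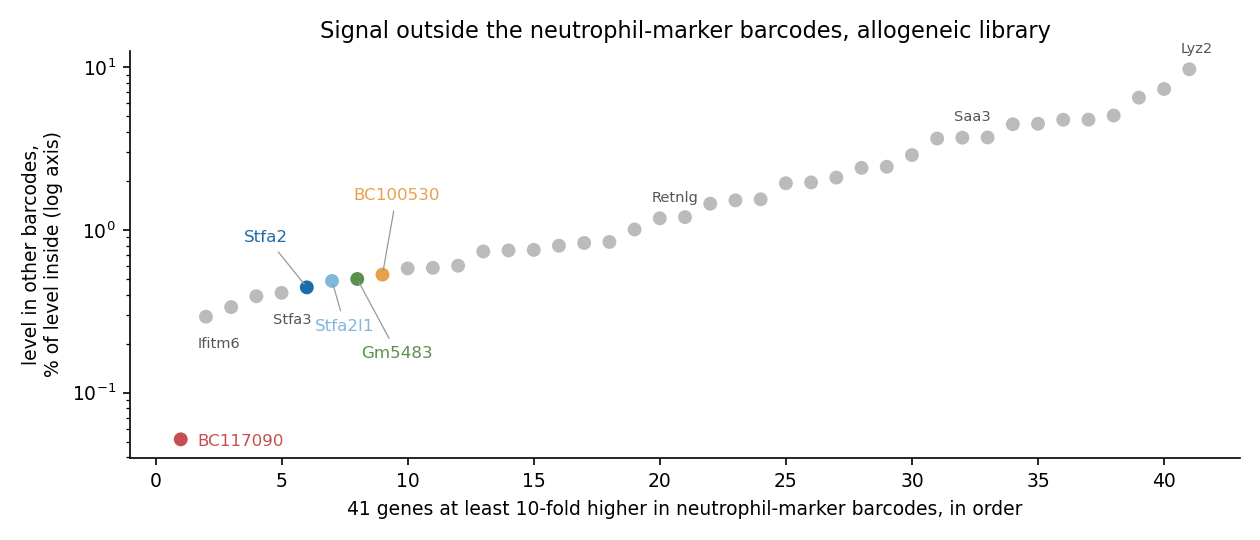
CPM in the other allogeneic barcodes as a percentage of CPM in neutrophil-marker barcodes (log axis) for 41 genes with at least 500 UMIs inside and at least 10-fold higher there, in ascending order, with the 5 stefin genes coloured. BC117090 is lowest at 0.0516% and the next gene, Ifitm6, is at 0.293%.

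Among the 41 genes that were at least 10-fold higher inside and had at least 500 UMIs there, BC117090 was the lowest in this measure. The next was Ifitm6 at 0.293%, the median was 1.20%, and Lyz2, the lysozyme of neutrophils and macrophages alike, was the highest at 9.72%. The part of read assignment between the near copies in the low count of BC117090 was not tested.

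In the syngeneic library 62 stefin UMIs were counted, and 2 barcodes held 54 of them. The first had 5014 UMIs, 7.40% of them in neutrophil markers, and carried 19 UMIs of Gm5483, 7 of Stfa2l1, 1 each of BC100530 and BC117090 and 0 of Stfa2, beside 16 UMIs of T markers. The second had 13708 UMIs, 1.40% of them in neutrophil markers, with 12 of Gm5483, 11 of BC100530 and 3 of Stfa2l1, beside 34 UMIs of T markers. Gm5483 led in both, and all 31 of its syngeneic UMIs were in these barcodes.

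A neutrophil signature did not always come with these genes. The syngeneic barcode richest in it had 34.0% of its 8594 UMIs in neutrophil markers, including 1303 of S100a8, 248 of Retnlg and 164 of Ngp, and held 1 stefin UMI. It also had 28 UMIs of B markers, 9 of T markers and 20 of monocyte and macrophage markers, 19 of them Ly6c2. By the split used above for allogeneic barcodes, it would count among those with more monocyte UMIs. The third syngeneic barcode of the class (5388 UMIs, 5.22%) held 0, which allows up to 3 UMIs, and had 46 UMIs of B markers. With 3 such barcodes, a comparison of neutrophil-marker barcodes between the graft types rests on single barcodes and was not made. Without the class in either library, the stefin genes stood at 219 against 0.710 CPM, a log2 ratio of 8.27.

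The genes most like the 5 in the allogeneic library were ranked by Pearson r of log2(1 + UMIs per 10000) with their sum over 3500 barcodes. The highest were Stfa1 (r = 0.28), Mrgpra2b (0.24), S100a9 (0.24), S100a8 (0.23), Ngp (0.22), C5ar1 (0.22), Prok2 (0.21), Ly6g (0.21), Cd177 (0.20), Ifitm6 (0.20), Mmp9 (0.20) and Stfa3 (0.20). These are weak values in sparse counts, and they describe the barcodes that the genes share with neutrophil surface and granule genes. Of the 20 highest, 7 were in the list of neutrophil markers. In the 36 neutrophil-marker barcodes alone, Stfa3 (0.84), Ngp (0.81), Aldh2 (0.76), Stfa1 (0.75) and Ifitm6 (0.72) were the highest of 1102 genes, and 8 genes were among the 20 highest in both rankings. At the other end stood S100a10 (-0.81), Ccl9 (-0.76), Tgfb1 (-0.75), Gngt2 (-0.73), Clec4a1 (-0.73) and Ctsz (-0.71), a lysosomal cathepsin. The 36 include the 10 barcodes with more monocyte UMIs, and these values were not computed without them.

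Of the other 6 genes of the cluster, Stfa3 and Stfa1 were counted mainly or only in the neutrophil-marker class. Stfa3 had 1817 UMIs in the class and 108 outside, or 3344 and 13.7 CPM, and 38 UMIs in the syngeneic library. Stfa1 had 88 UMIs, all in the class. Against a floor of 3 UMIs outside, that is a 425-fold difference, and the interval had a lower limit of 338-fold. Gm5416 had 13 UMIs in the class and 2010005H15Rik had 5, with 0 and 1 outside. Csta1 and Gm4758 had 0 UMIs in either library. The counted row of Gm4758 carries a different gene identifier from the GENCODE M21 record placed in the cluster.

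Cystatins bind cysteine proteases inside or outside the cell. Of 24 listed genes of the family, 22 had a row and 5 had at least 50 UMIs, of which 4 stood higher in the class (Stfa1, Stfa3, Cstb and Cst3) and 1 lower (Cst7). The median log2 difference was 2.23, beside -0.99 over 8480 genes, 2115 of which stood higher. That count includes Stfa1 and Stfa3, the 2 that were at least 10-fold higher; for Cstb, Cst3 and Cst7 alone the median was 1.02. Cstb, the widely expressed stefin B, stood at 403 CPM inside and 85.7 CPM outside. Cst3, secreted cystatin C, stood at 532 and 263 CPM, and Cst7, the leukocystatin of cytotoxic cells, at 9.20 and 28.3 CPM.

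The protease list held papain-like cathepsins, the kind that stefins block, beside aspartic and serine cathepsins and legumain, which stefins are not known to block. Of its 15 genes, 12 had at least 50 UMIs, 6 stood higher in the class and 6 lower, beside 2115 of 8480 genes higher. The median log2 difference was 0.03, beside -0.99 over all genes, and none of the 12 was 10-fold higher. Among the papain-like cathepsins alone, counted separately after these values were seen, 5 of 8 stood higher and 3 lower, with a median of 0.58. Ctsd, the aspartic protease cathepsin D, stood at 703 CPM inside and 182 CPM outside, and Ctsb, cathepsin B, at 329 and 121 CPM. Ctsl stood at 92.0 and 38.2 CPM, and Ctss, cathepsin S of antigen-presenting cells, at 282 and 285 CPM. Ctsw, of cytotoxic lymphocytes, stood at 16.6 and 143 CPM. The 15 proteases together stood at 2087 CPM in the class, beside 46308 CPM of the 5 stefin genes. The protease sum includes those that stefins are not known to block. How it divides between barcodes with few and with more monocyte UMIs was not examined.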

How the data were processed

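Lymph node immune cells were profiled with a Chromium 3′ v3 kit (per the labels). Raw UMI counts per gene and barcode were deposited by the authors. Cell Ranger 2.2.0, STAR, Seurat 2.3.4 and mm10 are named in the submitters' processing notes. The selection of barcodes was not given in the sources used here. mm10 carries C57BL/6 alleles while the recipients were BALB/c, and its effect on these counts was not tested.

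All deposited barcodes were used, with no doublet caller (T and B marker UMIs are given instead). CPM is of all UMIs. T-marker and B-marker barcodes had at least 3 UMIs in at least 2 markers and more than in the other lists; 5 of 7 T markers had a row. Intervals are exact Poisson or Clopper-Pearson (scipy 1.17.1), checked on simulated data, and a count of 0 was set against 3 UMIs, or 0.357 (allogeneic) and 0.0645 CPM (syngeneic). Sequences came from GENCODE M21 and RefSeq, aligned with Biopython 1.88. Named genes were the 5 members, the cystatin and cathepsin lists, the 20 genes most like the members, and up to 4 of each list by CPM; others were named after their values were seen. A listed gene is not reported. Members and lists were chosen with earlier results of these data known. Alternatives changed the barcode filter, scaling, class limits, thinning and gene minimum.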

Additional observations from a re-analysis of the deposited data

How the results depend on the processing

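No paired analysis was possible because each group had 1 library. The log2 ratio of the 5 genes summed was 11.23, and became 11.81 in barcodes from the lowest syngeneic total (3447 UMIs), 11.93 without the barcode richest in these genes in each library and 8.27 without neutrophil-marker barcodes (an alternative chosen after seeing the data). Of 24 alternatives for single genes, 21 stayed within the counting interval, 3 moved and 0 reversed, and BC117090 without the richest barcode had 0 syngeneic UMIs and gave no value. The share of allogeneic barcodes with a stefin UMI (36.6%) was 10.7% with at least 2 UMIs, 43.6% with 200 genes and at most 10% mitochondrial UMIs, 54.2% from 3447 UMIs and 17.4% thinned to 1000 UMIs. The share of stefin UMIs in the class (93.6%) was 94.0% with a limit of 2%, 95.1% with the gene and mitochondrial filter, 92.8% without the richest barcode and 91.8% with few monocyte UMIs (chosen after seeing the data). The level in the class (46308 CPM) was 40250 at a limit of 2%, 53129 at 10%, 52560 with markers other than S100a8 and S100a9, 43550 without the richest barcode and 64707 with few monocyte UMIs. The share of genes at least 2-fold higher in the allogeneic library was 27.3% with at least 1 UMI, a change that comes with the lower minimum. The cause of the other changes was not tested. The different UMI minimums of the 2 libraries and 12.5% haemoglobin limit how finely low shares can be read.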

Other observations

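Secondary granule genes stood higher in the neutrophil-marker barcodes, in part because they define them. All 8 stood higher, with a median log2 difference of 6.90 beside -0.99 over all genes, but Ltf, Camp, Ngp and Lcn2 are among the 16 markers that chose the class. The other 4, which are not, also stood higher, with a median of 5.23. Among them Anxa1, a calcium-dependent phospholipid-binding protein, stood at 7226 against 60.1 CPM and Chil3, a chitinase-like protein, at 2849 against 34.2 CPM. Of the 7 early granulocyte genes only Prtn3 had at least 50 UMIs, with 37 UMIs inside and 47 outside, and Mpo had 3 and 17.

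Genes of the type I interferon response stood mostly lower in the neutrophil-marker barcodes. Of 11 with at least 50 UMIs, 10 stood lower and 1 higher, with a median log2 difference of -3.73, beside 6365 of 8480 genes lower and a median of -0.99 over all genes. Ifit3 stood at 14.7 against 273 CPM, Irf7 at 44.2 against 280 CPM and Ifi27l2a at 162 against 1160 CPM. The exception, named after its value was seen, was Ifitm3 at 1191 against 87.5 CPM. Of 6 inflammatory and acute-phase genes with that many UMIs, 4 stood higher, beside 2115 of the 8480 genes, with Saa3 at 10574 against 390 CPM, Cxcl2 at 707 against 16.4 CPM and Il1b at 466 against 24.6 CPM, while Ccl4 stood at 7.36 against 18.8 CPM. The 10 barcodes with more monocyte UMIs held 4694 of the 5745 Saa3 UMIs and 210 of the 253 Il1b UMIs of the class, and the barcode of rank 21 held 862 of the other 1051 Saa3 UMIs.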
